A study of Mus musculus with 12 samples.

Results

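The cytosolic heat shock response genes were examined in whole-kidney RNA-Seq of 12 mice. They were taken as a fixed list of 10 genes matched by symbol among the 55401 genes of each table. The 10 genes are Hspa1a, Hspa1b, Hsph1, Dnajb1, Hspa8, Hsp90aa1, Hsp90ab1, Hspb1, Hspe1 and Hsf1. All mice were male C57BL6 animals, given by the study as 8 weeks old, with no genetic change named in the labels. The vehicle group (n = 6) received 1 intraperitoneal injection of 15% 2-Hydroxypropyl-beta-cyclodextrin. The SK-124 group (n = 6) received SK-124, an inhibitor of the salt-inducible kinases SIK2 and SIK3, in the same way, at 40 mg/kg in the study's account of this experiment. The interval from injection to tissue collection is not given for these libraries in the sources used here. The comparison asked whether these chaperone transcripts differed after the inhibitor.

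When proteins misfold, the transcription factor HSF1 is released from chaperones in the cytosol, forms trimers and binds heat shock elements, which are inverted repeats of the letters GAA in the promoters of chaperone genes. The inducible HSP70 genes Hspa1a and Hspa1b, their J-domain partner Dnajb1, the HSP110 gene Hsph1 and the small heat shock protein gene Hspb1 are classical targets of this factor. Hspa8 and Hsp90ab1 encode the constitutive forms of HSP70 and HSP90 that most cells make in large amounts, and the kidney tubule is known to raise inducible HSP70 and HSP27 after ischaemia or toxic injury. Hspe1 encodes HSP10, the lid of the mitochondrial HSP60 chaperonin, and is grouped with the cytosolic genes because HSF1 drives it, although its protein works in mitochondria.

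The upstream sequences of members that the results turn on are shown here because they carry the letters that HSF1 recognises. Sequences are from RefSeq on build GRCm38.p6, read 5′ to 3′ on the strand of the gene, and the capitals mark matches to GAANNTTC or TTCNNGAA, which are a pair of adjacent inverted GAA units. The Hspa1a sequence covers the 250 bases just before the transcript start (chr17:34972157-34972406, minus strand) and holds 1 match, at positions -104 to -97 counted back from the start.
Hspa1a: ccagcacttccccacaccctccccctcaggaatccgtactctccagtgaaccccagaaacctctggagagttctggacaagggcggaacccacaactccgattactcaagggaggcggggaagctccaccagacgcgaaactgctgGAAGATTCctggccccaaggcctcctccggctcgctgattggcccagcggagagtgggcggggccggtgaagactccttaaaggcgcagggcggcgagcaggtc
The same window of Hspa1b (chr17:34959239-34959488, minus strand) has 247 of 250 bases in common with it, match included. The Hspb1 window (chr5:135887669-135887918, plus strand) holds 2 matches, the nearer at -97 to -90.
Hspb1: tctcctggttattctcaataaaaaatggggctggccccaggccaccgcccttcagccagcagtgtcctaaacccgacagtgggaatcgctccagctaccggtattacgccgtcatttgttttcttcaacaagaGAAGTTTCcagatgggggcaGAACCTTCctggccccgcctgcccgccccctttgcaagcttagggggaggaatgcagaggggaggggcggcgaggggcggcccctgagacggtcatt
For Hsph1 and Hspe1, only the 30 bases around the matches are shown, at chr5:149636351-149636380 on the minus strand and chr1:55088053-55088082 on the plus strand. The GENCODE gene models start 40 bases (Hsph1) and 16 bases (Hspe1) further upstream than these RefSeq starts.
Hsph1: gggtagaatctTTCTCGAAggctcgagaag
Hspe1: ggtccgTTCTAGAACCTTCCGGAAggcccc
Hspe1 has 3 overlapping matches in a row, at -89 to -72, so that its units alternate over more than a pair and make the 3-unit heat shock element on both strands. Of the 6 members with a window in the RefSeq table, 5 hold GAANNTTC or TTCNNGAA in the 250 bases before the start, and Dnajb1 holds neither. Among all 32851 windows of this length, 12.84% hold either form, and the 3-unit element was in 0.2435% on one strand and 0.2466% on the other. The shorter forms read the same on either strand apart from the spacer letters, and the 3-unit element was searched in both orientations, so the search covers both strands. The cAMP response element core, TGACG or its complement CGTCA, was searched because salt-inducible kinases act on coactivators of CREB, and it was found in the windows of Dnajb1, Hspb1 and Hspe1, against 17.77% of all windows. A match is a string of letters and not a measured binding site. Hspa8, Hsp90aa1, Hsp90ab1 and Hsf1 were not analysed in this way.

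All 10 genes were expressed in vehicle-treated kidneys, led by the constitutive chaperones. Levels between genes are compared in TPM, which corrects for gene length, as the mean ± SD of 6 mice. Hspa8, the constitutive HSP70, stood at 924 ± 129.7 TPM, and its mean over all 12 mice lay above 99.7% of the genes tested. Hsp90ab1, the constitutive HSP90, stood at 299.7 ± 32.0 TPM and Hsp90aa1, its inducible counterpart, at 126 ± 23.9 TPM. Hspe1 followed at 88.0 ± 8.16 TPM. Hspa8, Hsp90ab1 and Hsp90aa1 together made up a median of 90.1% of the members' summed TPM (range 89.4 to 90.9%), with Hspa8 alone at 62.7%. Hsph1, an HSP110 that exchanges nucleotide on HSP70, stood at 18.5 ± 3.55 TPM, and Hsf1, the transcription factor itself, at 15.8 ± 0.719 TPM. The lowest 4 of the set were Hspb1 at 9.08 ± 1.48, Dnajb1 at 6.00 ± 0.628, Hspa1b at 5.27 ± 2.13 and Hspa1a at 3.82 ± 1.06 TPM.

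In this order, neighbouring ranges did not overlap among vehicle-treated mice between Hspa8 and Hsp90ab1, between Hsp90ab1 and Hsp90aa1, between Hspe1 and Hsph1, and between Hsf1 and Hspb1. Hsp90aa1 (94.4 to 163 TPM) overlapped Hspe1 (77.8 to 103 TPM), although it was the higher of the pair in 6 of 6 vehicle-treated mice and 6 of 6 SK-124-treated mice. Hsph1 and Hsf1 could not be ordered, with Hsph1 the higher in 5 of 6 vehicle-treated and 4 of 6 SK-124-treated mice. Dnajb1 and Hspa1b could not be ordered either, with Dnajb1 higher in 4 of 6 vehicle-treated and 2 of 6 SK-124-treated mice. Hspa1a and Hspa1b share so much sequence that their order depends on how the reads were divided. The ratio of inducible to constitutive HSP70, summed Hspa1a and Hspa1b to Hspa8, had a geometric mean of 0.00945 in TPM.

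**Figure D1:**
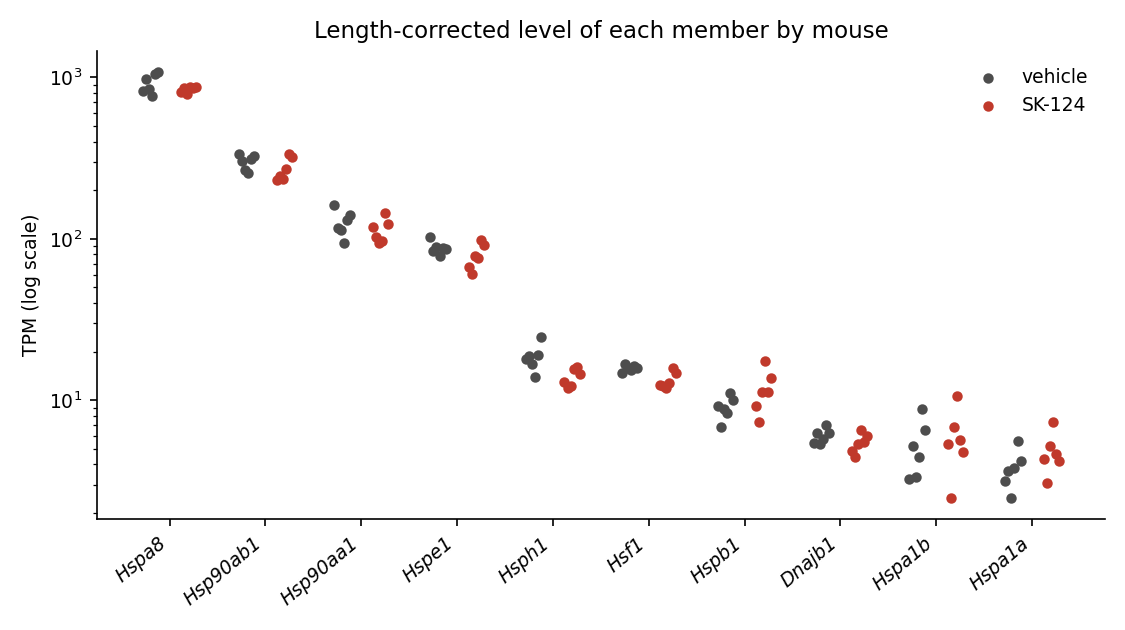
Level of each member in TPM (vertical log axis) in the 6 vehicle-treated mice (grey) and the 6 SK-124-treated mice (red), each point 1 mouse, with genes ordered by their vehicle mean. Hspa8 lies at the top, between 764 and 1079 TPM in the vehicle group, and Hspa1a at the bottom, between 2.49 and 5.62 TPM.

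The median change of this set with SK-124 was small, while the largest, that of Hspb1, lay at percentile 88.0 of the absolute log2 fold changes of genes tested. In the fit across 14159 genes (edgeR, quasi-likelihood, p adjusted by Benjamini-Hochberg and called under 0.05), 3 of the 10 members were called, against 24.4% of all genes tested. Hspb1 and Hspa1a were higher, where 10.8% of genes were called higher, and Hsph1 was lower, where 13.5% of genes were called lower. No member's groups were free of overlap, a state found in 13.0% of genes tested. The members' median log2 fold change was 0.0076 against -0.0050 over all genes, and their median absolute log2 fold change was 0.062 against 0.14. All 10 members passed the filter on low counts. In whole-kidney RNA, fewer cells of a type and less RNA per cell cannot be told apart.

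**Figure D2:**
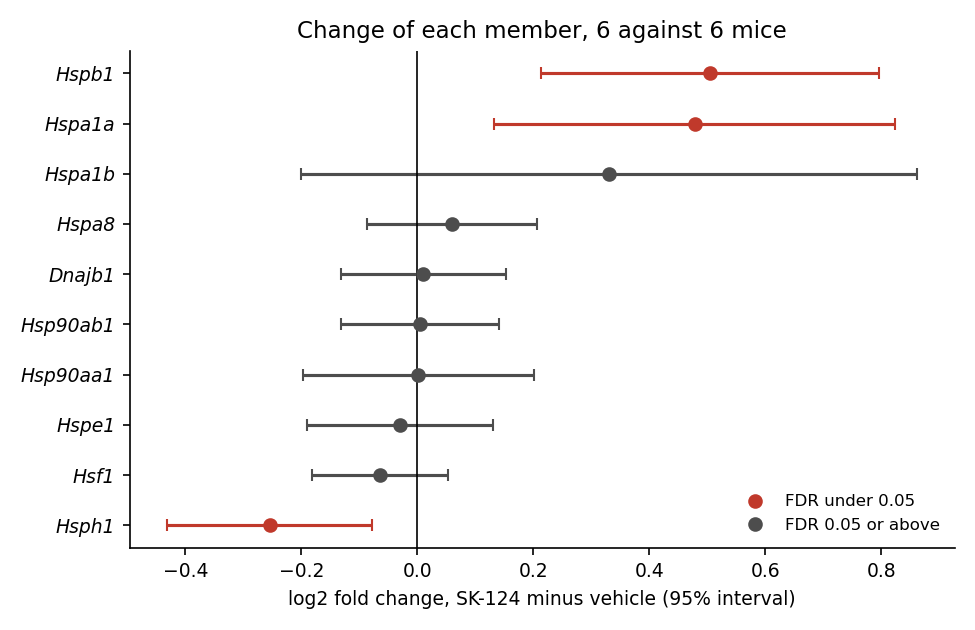
Log2 fold change (SK-124 minus vehicle, horizontal axis) of each member from the edgeR fit on 6 against 6 mice, with 95% intervals as bars. Red marks the members called, with Hspb1 (0.50) and Hspa1a (0.48) to the right of 0 and Hsph1 (-0.25) to the left, and the intervals of the 7 grey members cross 0.

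Hspb1, which encodes the small heat shock protein HSP25 (HSP27 in humans) that holds unfolded proteins and stabilises actin, was one of the 2 members that rose. Its normalised read count ran from 5.20 through a median of 7.06 to 7.97 CPM (read counts scaled to library size by TMM) in vehicle-treated mice, and from 7.07 through 9.35 to 13.8 CPM in SK-124-treated mice. Of the SK-124-treated mice, 5 of 6 lay above every vehicle-treated mouse, and mouse 2 lay inside the vehicle range. The mean went from 6.89 ± 0.925 to 9.75 ± 2.34 CPM, a log2 fold change of 0.50 (SE 0.14, 95% interval 0.21 to 0.80, adjusted p = 0.0124 in edgeR's quasi-likelihood test). An exact permutation test, two-sided and run on log2(CPM + 0.5), gave p = 0.00866, where 0.00216 is the smallest that 6 against 6 mice allow. The call was kept when any single mouse was left out, with log2 fold changes from 0.38 to 0.58. It was lost on scales that are not corrected for the composition of the libraries: the adjusted p was 0.0662 with library totals alone and 0.197 with limma on log2(TPM + 1), where the log2 fold change was 0.30. Hspb1 lies on chromosome 5 from 135887919 to 135889563 (plus strand, GRCm38, GENCODE M21) and has 3 exons. The processed copy Hsp25-ps1 shares 48.83% of its 50-base stretches but was given between 0 and 3.61 reads per mouse, at most 2.14% of the Hspb1 count of the same mouse. The counts behind these values were low, from 105 to 278 per mouse.

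Hspa1a and Hspa1b encode the same inducible cytosolic HSP70, which refolds proteins after stress, from intronless genes on chromosome 17 (34969190 to 34972156 and 34956436 to 34959238, minus strand, GRCm38). Hspa1a ran from 8.12 through a median of 11.4 to 15.8 CPM in vehicle-treated mice and from 11.6 through 14.7 to 22.7 CPM in SK-124-treated mice. SK-124-treated mice 3 and 4 were above every vehicle-treated mouse, and the other 4 were within the vehicle range. The mean was 11.4 ± 2.63 CPM against 15.8 ± 4.18 CPM, a log2 fold change of 0.48 (SE 0.16, 95% interval 0.13 to 0.82, edgeR adjusted p = 0.0413), with an exact permutation p of 0.0455. Hspa1b ran from 9.13 through 14.0 to 23.4 CPM in vehicle-treated mice and from 8.88 through 17.0 to 31.0 CPM in SK-124-treated mice. These groups overlapped along most of their length, and the lowest mouse of all 12 was SK-124-treated. The log2 fold change of Hspa1b was 0.33 (SE 0.25, 95% interval -0.20 to 0.86, edgeR adjusted p = 0.382). It was 0.11 without SK-124 mouse 4 and 0.52 without vehicle mouse 5, in neither case called. A difference as large as that of Hspa1a, or a small one in the other direction, both lay inside the interval.

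The pair cannot be measured apart with confidence. Of the 50-base stretches of Hspa1a, 58.81% also occur in Hspa1b, and of those of Hspa1b, 62.31% occur in Hspa1a, and the expected counts were fractional in 11 of 12 and 12 of 12 mice. Summed before the fit, the pair stood at 26.0 ± 7.70 CPM in vehicle-treated mice and 34.2 ± 11.9 CPM in SK-124-treated mice. The sum gave a log2 fold change of 0.40 (SE 0.21, 95% interval -0.04 to 0.84, edgeR adjusted p = 0.185) and was not called. Its exact permutation p was 0.177. The Hspa1a call was also lost when any of 8 single mice was left out (vehicle mice 1, 2, 3, 4 and 6, and SK-124 mice 1, 3 and 4), with adjusted p from 0.0611 to 0.110 and log2 fold changes from 0.35 to 0.49. With all mice it was lost with library totals alone (log2 fold change 0.37, adjusted p = 0.131), with robust dispersion (adjusted p = 0.0723) and with limma on log2(TPM + 1) and log2(TPM + 0.1) (log2 fold changes 0.26 and 0.31, adjusted p = 0.284 and 0.278).

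The highest mouse of each group for inducible HSP70 was also its highest for immediate early genes, but the remaining mice did not all keep 1 order. A list of 12 genes known to respond within minutes to handling and dissection as well as to hormones (Fos, Egr1, Atf3, Dusp1 and others) had a summed TPM of 58.0 to 280.2 in vehicle-treated mice (median 79.0) and of 158 to 369.9 in SK-124-treated mice (median 253). Of the list, 7 of 12 genes were higher by edgeR (Atf3, Nr4a1, Dusp1, Zfp36, Btg2, Junb and Ier3), where 10.8% of all genes tested were called higher. Fos and Egr1 were not called. The exact permutation p of the sum was 0.0130, not adjusted over the summed lists. Vehicle mouse 5 had the highest value of its group in the list (280.2 TPM, the next at 85.5 TPM) and in summed Hspa1a and Hspa1b (39.3 CPM). SK-124 mouse 4 had the highest in its group for both, at 369.9 TPM and 53.8 CPM, and SK-124 mouse 3 the next, at 270.2 TPM and 41.5 CPM. SK-124 mouse 2 had 184 TPM in the list and the lowest summed HSP70 of its group, 20.5 CPM. SK-124 mouse 1 had its group's lowest list sum (158 TPM) but more summed HSP70 (33.9 CPM) than mice 2, 5 and 6. Vehicle mouse 2 had its group's lowest list sum (58.0 TPM) but more summed HSP70 (25.7 CPM) than mice 1, 3 and 4. Hspb1 was likewise highest in vehicle mouse 5 (7.97 CPM) and in SK-124 mouse 4 (13.8 CPM). Summed markers of collecting duct principal cells were also highest in vehicle mouse 5 (284 TPM) and SK-124 mouse 4 (310 TPM). They were lowest in vehicle mouse 4 (194 TPM) and SK-124 mouse 2 (158 TPM), where summed HSP70 was 25.2 and 20.5 CPM. Summed endothelial markers were highest in vehicle mouse 5 (169 TPM) and SK-124 mouse 4 (151 TPM) too. The part of the handling list and of these markers in the HSP70 and Hspb1 values was not tested. With vehicle mouse 5 and SK-124 mouse 4 both left out, an alternative chosen after seeing the data, 2 members were called, Hspa1a and Hspb1.

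**Figure D3:**
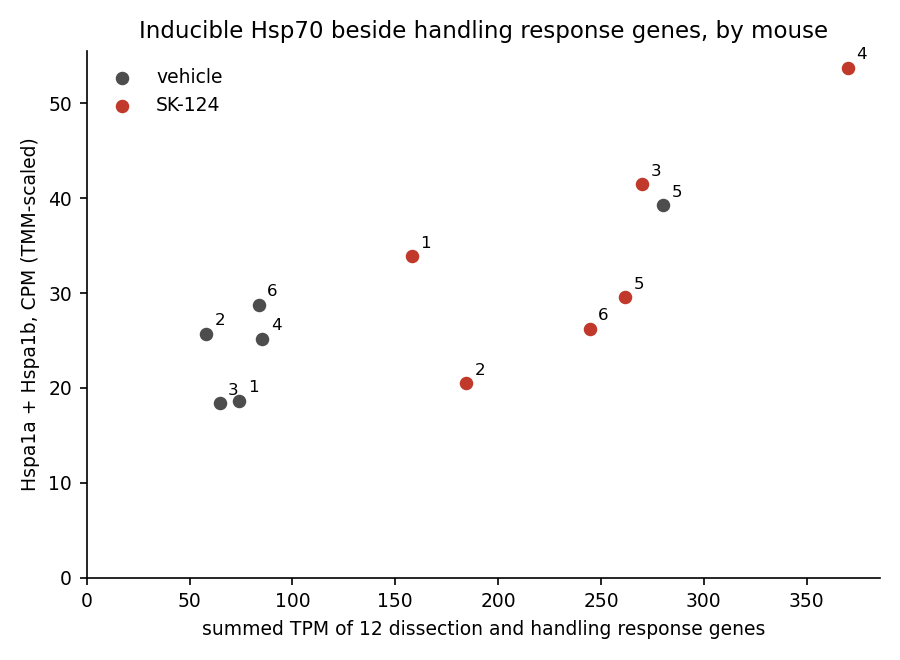
Summed Hspa1a and Hspa1b (CPM, vertical axis) against the summed TPM of 12 dissection and handling response genes (horizontal axis), each point 1 mouse with its number, grey for vehicle and red for SK-124. Vehicle mouse 5 (280.2 TPM, 39.3 CPM) lies among the SK-124-treated mice, and SK-124 mouse 4 (369.9 TPM, 53.8 CPM) lies highest on both axes.

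Hsph1, which encodes HSP105, was the member that fell. It ran from 39.9 through a median of 52.3 to 60.1 CPM in vehicle-treated mice and from 39.4 through 42.6 to 46.8 CPM in SK-124-treated mice. The treated mice were tightly grouped near the bottom of the vehicle range, and vehicle mice 3 and 4 lay within the treated range. The mean was 50.8 ± 7.30 CPM against 42.6 ± 2.65 CPM, a log2 fold change of -0.25 (SE 0.08, 95% interval -0.43 to -0.08, edgeR adjusted p = 0.0341), with an exact permutation p of 0.0346. The coefficient of variation was 14.4% in the vehicle group and 6.21% in the SK-124 group. Without any of vehicle mice 1, 2, 5 and 6 or SK-124 mice 1, 3, 5 and 6 the call was lost, with adjusted p from 0.0537 to 0.0885, while the log2 fold change stayed between -0.32 and -0.20 whichever mouse was left out. With limma on log2(TPM + 0.1), where the median over all genes was -0.14, it was -0.40 (adjusted p = 0.0293). Hsph1 lies on chromosome 5 from 149614287 to 149636376 (minus strand, GRCm38), and none of its 50-base stretches occurs in another annotated gene. Its direction was opposite to that of Hspb1 and Hspa1a, and its upstream window, like theirs, holds the paired GAA letters printed above. The Hsph1 match, at -33 to -26 of the RefSeq start, lies inside the GENCODE gene model. Those of Hspa1a and Hspb1 lie before their GENCODE starts.

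**Figure D4:**
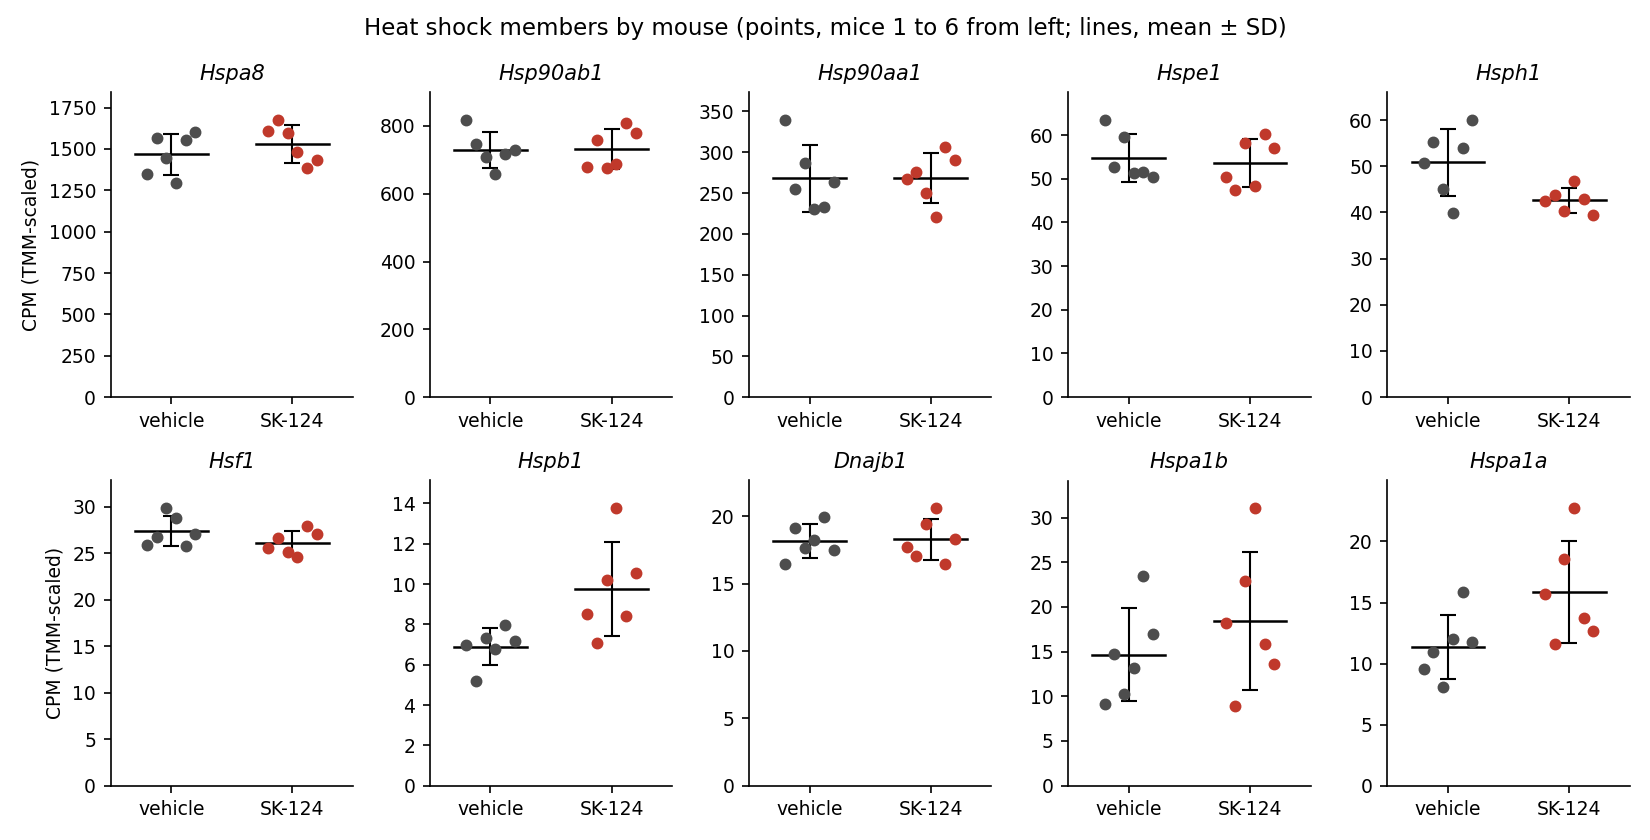
Normalised read count (CPM, vertical axes from 0) of each of the 10 members in the 6 vehicle-treated (grey) and 6 SK-124-treated (red) mice, mice 1 to 6 from left to right, with the mean and SD as black lines. Hspb1 shows 5 red points above all grey points, Hsph1 shows red points between 39.4 and 46.8 CPM, and every panel has some overlap between the groups.

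The remaining members were not called, and their intervals limit how far they could have moved on the TMM scale of the main fit. With limma on log2(TPM + 0.1), where the median over all genes was -0.14, Dnajb1, Hsf1, Hspa8 and Hsp90ab1 lay below these intervals, without being called. Dnajb1, the J-domain protein that delivers clients to HSP70 and restrains HSF1, ran from 16.4 through a median of 17.9 to 20.0 CPM in vehicle-treated mice and from 16.5 through 18.0 to 20.6 CPM in treated mice. Its estimate was a log2 fold change of 0.01 (95% interval -0.13 to 0.15, edgeR adjusted p = 0.932). The groups covered nearly the same range. Hsf1 ran from 25.8 through 26.9 to 29.8 CPM in vehicle-treated mice and from 24.6 through 26.1 to 27.9 CPM in treated mice. Its estimated log2 fold change was -0.06 (95% interval -0.18 to 0.05, edgeR adjusted p = 0.448). HSF1 is regulated mainly as a protein, so its transcript is not a measure of its activity.

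Among the constitutive chaperones, Hspa8 ran from 1295 through a median of 1497 to 1602 CPM in vehicle-treated mice and from 1384 through 1539 to 1676 CPM in treated mice. The log2 fold change was 0.06 (95% interval -0.09 to 0.21, edgeR adjusted p = 0.577). SK-124-treated mice 1 and 2 were the only ones above the vehicle range. Hsp90ab1 ran from 657 through 724 to 818 CPM in vehicle-treated mice and from 677 through 724 to 809.9 CPM in SK-124-treated mice, so the treated range lay inside the vehicle range. The log2 fold change was 0.00 (95% interval -0.13 to 0.14, edgeR adjusted p = 0.968). Hsp90aa1 ran from 230.4 through 259 to 339.7 CPM in vehicle-treated mice and from 220.4 through 271 to 307 CPM in treated mice. The log2 fold change was 0.00 (95% interval -0.20 to 0.20, edgeR adjusted p = 0.994), and changes in either direction inside that interval were compatible with the data. Hspe1 ran from 50.3 through 52.1 to 63.5 CPM in vehicle-treated mice and from 47.5 through 53.8 to 60.3 CPM in treated mice. For Hspe1 the log2 fold change was -0.03 (95% interval -0.19 to 0.13, edgeR adjusted p = 0.818). Hspa8 and Hsp90aa1 share 38.58% and 47.49% of their 50-base stretches with other annotated genes, but the copies that share most, Gm15459 and Gm12346, were given at most 2.32% and 1.12% of the reads of their parent gene. Hspe1 shares a promoter region with Hspd1, which is read from the opposite strand and overlaps it, so reads in the overlap cannot be assigned where strand is not used.

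A set of ratios within each mouse was free of the scaling between libraries, since both genes of a ratio come from the same library. The 4 ratios were tested by two-sided exact permutation on log2 TPM ratios, with Benjamini-Hochberg adjustment over the 4. Summed Hspa1a and Hspa1b to Hspa8, inducible to constitutive HSP70, had a log2 mean of -6.73 ± 0.353 in vehicle-treated mice and -6.38 ± 0.558 in SK-124-treated mice (difference 0.34, exact permutation p = 0.238, adjusted p = 0.317). Hsp90aa1 to Hsp90ab1, inducible to constitutive HSP90, was -1.26 ± 0.140 against -1.26 ± 0.172 (exact permutation p = 0.965). Neither ratio separated the groups. Hsph1 to Hspa4, a related HSP110, was -0.20 ± 0.214 against -0.47 ± 0.0931, and 3 of 6 SK-124-treated mice lay below every vehicle-treated mouse. That difference of -0.27 had an exact permutation p of 0.0152 and an adjusted p of 0.0606. Hspe1 to Hspd1, the lid to the barrel of the mitochondrial chaperonin, was -0.26 ± 0.208 against -0.42 ± 0.138 (exact permutation p = 0.126, adjusted p = 0.251).

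The members did not share 1 order of mice. SK-124 mouse 4 was the highest of its group for 5 members and the lowest for 2, and SK-124 mouse 5 was the highest for 4 and the lowest for 2. Vehicle mouse 5 was the highest of its group for 4 members, vehicle mouse 1 for 3, and vehicle mouse 4 was the lowest for 4. As a description over 12 mice, after the group mean was taken out, the genes whose log2(CPM + 0.5) was most like the mean of the 10 members were Anxa11 (Pearson r = 0.956), Epor (0.892), Ms4a6b (0.888), Gnb5 (0.887) and Cd59b (0.880). These 5 were picked as the highest among all genes tested outside the members, so high values of r are to be found by selection alone. The members themselves ranged from -0.48 for Hsf1 to 0.64 for Hspa1b, although each member is itself part of the mean it was set against. The mean is therefore a weak summary of the members. Annexin A11 is a calcium-dependent phospholipid binding protein, and its own log2 fold change was 0.04 (edgeR adjusted p = 0.524).

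Around the members, 9 lists of other chaperone pathway genes held 102 genes, of which 98 were tested, 20 were higher and 7 lower, or 27.6% called against 24.4% of all genes. With library totals alone, which shifted the median of all genes to -0.12, the split was 10 higher and 10 lower, and Vbp1, Pfdn2 and Sirt1 of the genes named here were not called. With limma on log2(TPM + 1) the log2 fold changes of Dedd2, Grpel2 and Bag4 were 0.26, 0.26 and 0.32 and none of these genes was called (adjusted p = 0.0882, 0.0864 and 0.0510), and Vbp1, Pfdn2 and Sirt1 were again not called. Without SK-124 mice 1 to 3, the calls of Hspa12b, Vbp1, Pfdn2, Sirt1 and Ttc4 were lost (edgeR adjusted p from 0.0550 to 0.138). Of the 19 co-chaperones of HSP90, 3 were higher, 1 was lower and 15 were not called. Fkbp5, an immunophilin that binds HSP90 on steroid receptors and is well known as a glucocorticoid target, rose from 28.8 ± 4.43 to 126 ± 9.07 CPM (log2 fold change 2.13, SE 0.09, edgeR adjusted p = 2.84e-11). Its vehicle-treated mice reached 33.9 CPM at most and its SK-124-treated mice started at 111 CPM. Cdc37l1, a relative of the kinase-loading co-chaperone CDC37, rose from 38.4 ± 4.53 to 81.1 ± 5.98 CPM (log2 fold change 1.08, edgeR adjusted p = 1.51e-08), again without overlap. Ttc4, an HSP90-binding co-chaperone, fell by 0.16 on the log2 scale (edgeR adjusted p = 0.0445), a call that did not hold with RLE factors, DESeq2, limma on either TPM scale or no low-count filter (adjusted p from 0.0517 to 0.0992), or without any of vehicle mice 1, 2, 3, 4 and 6 and SK-124 mice 2, 4, 5 and 6 (edgeR adjusted p from 0.0538 to 0.10).

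For the counts that follow, the shares over all genes tested were 10.8% called higher and 13.5% called lower. Among partners of HSP70, 7 of 18 J-domain genes were higher and 1 lower. Dnajb4, a cytosolic relative of Dnajb1, rose by 0.66 on the log2 scale (11.6 ± 1.13 to 18.3 ± 0.693 CPM, edgeR adjusted p = 1.41e-06), and Dnajb2, which passes clients to the proteasome, rose by 0.50 (edgeR adjusted p = 0.00024). Dnajc6, the clathrin-uncoating protein auxilin, fell by 0.58 on the log2 scale (edgeR adjusted p = 0.00025). Of 10 nucleotide exchange factors and regulators, 2 were higher: Bag4 by 0.56 (edgeR adjusted p = 1.33e-06) and Grpel2, which works in mitochondria, by 0.48 (edgeR adjusted p = 1.27e-05). Of 8 tested HSP70 and HSP110 relatives, none was called higher by edgeR (1 at an unadjusted p under 0.05, and 1 by DESeq2) and 3 were lower, with Hspa12b at -0.57 (edgeR adjusted p = 0.0064) and Hspa12a at -0.47 (edgeR adjusted p = 0.00021). None of the 6 tested small heat shock proteins other than Hspb1 was called, with a median log2 fold change of 0.10, and none of 5 mitochondrial chaperones, also with a median of 0.10. At an unadjusted edgeR p under 0.05 these counts were 0 and 2, and DESeq2 called 0 and 2, the latter Trap1 and Lonp1. Of 13 chaperonin and prefoldin genes 3 were higher, Vbp1 by 0.24 and Pfdn2 by 0.22 among them. The call of Pfdn2 was lost without any of vehicle mice 1, 2, 5 and 6 and SK-124 mice 2, 3, 4 and 6 (edgeR adjusted p from 0.0538 to 0.0888).

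Of 14 tested members of the HSF family and regulators of HSF1, 2 were higher, 2 were lower and 10 were not called, against 24.4% called over all genes. Ier5l and Ier5, immediate early proteins of which IER5 is known to activate HSF1 through a phosphatase, fell by 1.11 and 0.59 on the log2 scale (edgeR adjusted p = 3.15e-06 and 0.00046). Ier5l went from 9.42 ± 0.938 to 4.38 ± 0.928 CPM with no overlap. Sirt1, a deacetylase that prolongs HSF1 binding, rose by 0.23 (edgeR adjusted p = 0.0171) and Dedd2, a death effector domain protein, by 0.43 (edgeR adjusted p = 0.0002). Among the ubiquitin genes of the stress response, Sqstm1, which encodes an autophagy receptor, rose from 286 ± 9.99 to 406 ± 39.8 CPM (log2 fold change 0.51, edgeR adjusted p = 1.13e-05), and Ubb, a polyubiquitin gene, rose by 0.36 on the log2 scale (edgeR adjusted p = 0.00204).

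**Figure D5:**
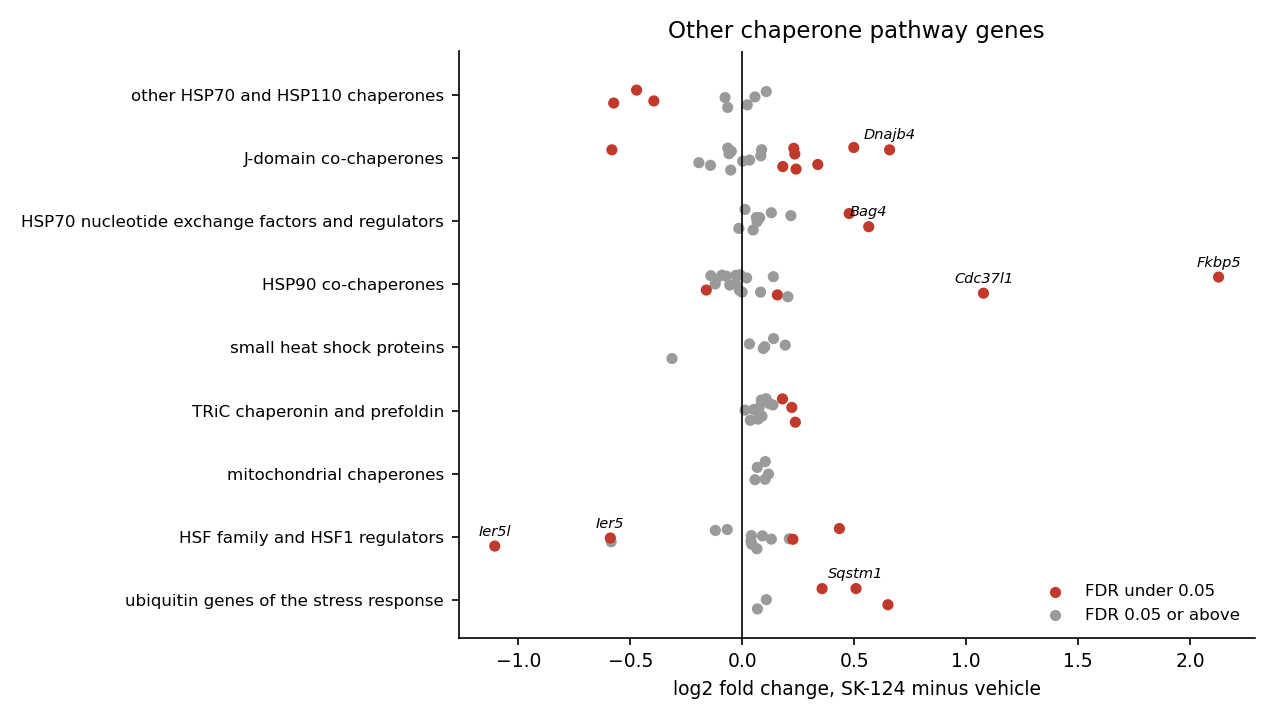
Log2 fold change (SK-124 minus vehicle, horizontal axis) of 98 other chaperone pathway genes in 9 lists, each point 1 gene, with red for genes called in the edgeR fit and vertical position within a list without meaning. Fkbp5 (2.13) and Cdc37l1 (1.08) lie far to the right and Ier5l (-1.11) to the left, while the small heat shock proteins and mitochondrial chaperones hold no red point.

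The libraries held between 19244227 and 19771802 expected counts. In SK-124 mice 1 to 3 the 10 most abundant genes took 44.4 to 46.8% of the counts, above the vehicle range of 39.9 to 43.2%, and in SK-124 mice 4 to 6 they took 38.6 to 40.2%. Without SK-124 mice 1 to 3, Hspb1 alone was called (log2 fold change 0.67, edgeR adjusted p = 0.00665), Hspa1a stood at 0.53 (adjusted p = 0.0875) and Hsph1 at -0.23 (adjusted p = 0.19). Proximal tubule markers summed to between 34615 and 47005 TPM in vehicle-treated mice and the steroid enzymes and catecholamine genes of the adrenal were under 10 counts in every mouse. Of 6 tested tubular injury markers, 4 were higher by edgeR (Lcn2, Vcam1, Spp1 and Clu), where 10.8% of all genes tested were called higher. The sum of the list did not pass (exact permutation p = 0.242). The summed endothelial markers were lower (vehicle 128 to 169 TPM, SK-124 86.5 to 151 TPM, exact permutation p = 0.0368, not adjusted over the marker lists). TPM is not corrected for library composition. In the edgeR fit 2 of the 6 endothelial markers were called lower (Kdr and Tek), where 13.5% of all genes tested were called lower. The part of these markers in the members' values was not tested.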

How the data were processed

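Whole-kidney RNA of 12 mice (6 vehicle, 6 SK-124) was analysed, 1 library per mouse, grouped by the treatment given in the sample labels. The authors deposited an RSEM gene table for each mouse, with expected counts (estimated reads per gene, not normalized) and TPM (corrected for length and scaled to a common total). Per the labels, their processing named FastQC, STAR 2.7.2b, RSEM 1.3.0, DESeq2 and the build mm10; the use of strand and the annotation are not given in the sources used here. Gene identifiers were matched to GENCODE M21 (GRCm38): 54349 of 55401 matched with version and 55141 with or without it.

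The expected counts, rounded, entered edgeR with TMM scaling and its filterByExpr rule, and its quasi-likelihood test was run on treatment alone, with Benjamini-Hochberg adjustment over 14159 genes. The SE is each log2 fold change over the root of its F statistic. CPM are TMM-scaled. Exact permutation tests were two-sided, on log2(CPM + 0.5) for single genes and on log2 TPM for ratios and summed lists. Those of the summed lists were not adjusted over the lists. The members, gene lists and tests were chosen with earlier results of these data known. All members were named; from each pathway list, up to 2 genes with the largest and up to 2 with the smallest log2 fold change among those called were named, and the 5 genes most like the members within groups. Other genes named (Ubb, the list examples, the markers and the near-identical copies) and the TGACG motif were chosen after values were seen. 1 gene that the naming rule picked is not reported here. Shared 50-base stretches were counted over all annotated transcripts.

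The tests were checked on simulated counts of this comparison with 200 changed genes among 14071: 100% were recovered by each tool, and false calls were 4.76% for edgeR, 7.41% for DESeq2 and 6.10% for limma. Every planted log2 change was larger than the largest of the members (0.50). The counts had a single dispersion, no added shift in library composition, and fewer changed genes than were called in the data. This check therefore does not measure the power for changes of the members' size. No pair of mice in a group looked like 1 library deposited again (smallest chi-square per degree of freedom 4.41 over 30 pairs). The common biological coefficient of variation was 0.10. Totals of 19244227 to 19771802 counts per mouse mean that the precision of the lower members is limited by counting as well as by the spread between mice. Mice with the same number in both groups are different animals; their deviations from the group means correlated between -0.13 and 0.22, so no pairing was used. Alternatives were RLE factors, library totals alone, DESeq2, limma on log2(TPM + 1) or log2(TPM + 0.1), robust dispersion, no filter, a minimum of 10 counts per mouse, counts left unrounded, a replicate block, each mouse left out, SK-124 mice 1 to 3 left out, Hspa1a and Hspa1b summed, and, chosen after seeing the data, the mouse of each group highest in handling genes left out. Fits were run with DESeq2 1.42.0, edgeR 4.0.16 and limma 3.58.1 in R 4.3.3, and other steps with scipy 1.17.1, pandas 2.3.3, numpy 2.4.6 and matplotlib 3.10.9 in Python 3.11.15.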

Additional observations from a re-analysis of the deposited data

How the results depend on the processing

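The count of genes called stayed within 1.5 times of 3453 under every alternative run, from 2446 without SK-124 mice 1 to 3 to 3942 without vehicle mouse 3. The split between directions moved, from 1536 higher and 1917 lower to 777 and 3058 with library totals alone, where the median over all genes was -0.12, and to 500 and 2130 with limma on log2(TPM + 1), where it was -0.11. The count of members called, 3, was 1 with library totals alone, 1 with limma on log2(TPM + 1), 1 with limma on log2(TPM + 0.1) and 1 without SK-124 mice 1 to 3, and ran from 1 to 3 when each mouse was left out (1 without vehicle mouse 1, 2 or 6 or SK-124 mouse 1 or 3), with Hspb1 called each time. Hsph1 was the member called on the TPM and library-total scales. Of the 98 other pathway genes, 27 were called in the main fit and 13 or 14 with limma on log2(TPM + 1) or log2(TPM + 0.1), 6 or 7 of them higher and 7 lower; with library totals alone 10 were higher and 10 lower. The split of directions in the pathway lists thus depended on the scaling; the cause was not tested.

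Members near 0 changed sign without being called. With library totals alone, limma on log2(TPM + 1) and limma on log2(TPM + 0.1), in that order, Dnajb1 stood at -0.10, -0.12 and -0.14, Hspa8 at -0.061, -0.12 and -0.12, Hsp90aa1 at -0.11, -0.15 and -0.15, and Hsp90ab1 at -0.11, -0.14 and -0.14. Hsf1 kept its sign and stood at -0.17, -0.23 and -0.25 in the same order. It was not called (edgeR adjusted p = 0.0812, limma adjusted p = 0.0651 and 0.0668). Hsp90aa1 was -0.0031 with at least 10 counts in every mouse. Without SK-124 mice 1 to 3, Hspa8 was -0.028 and Hspe1 was 0.018. With each mouse left out, Dnajb1 ran from -0.027 to 0.039, Hsp90aa1 from -0.040 to 0.081, Hsp90ab1 from -0.026 to 0.040 and Hspe1 from -0.066 to 0.016.

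The difference in the log2 ratio of Hsp90aa1 to Hsp90ab1 was 0.0024 from CPM and ran from -0.063 to 0.039 with each mouse left out. That of Hsph1 to Hspa4 ran from -0.33 to -0.21 with each mouse left out, and without vehicle mouse 4 passed the threshold (adjusted p = 0.0173). With the replicate number as a block, 3466 genes and 2 members were called, and Hsph1 was lost (adjusted p = 0.0567); the mice are not paired by design, and 4 of 12 correlated best with their own number. No value among 30 groups of member values or ratios stood apart from its group by Dixon's test. The fewest counts were those of Hspb1, 105 to 278 per mouse.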
